A study of Mus musculus with 6 samples.

Results

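The endoplasmic reticulum (ER) folding and unfolded protein response genes are 32 protein-coding genes, picked by symbol from the 54532 genes of the deposited table. They encode the chaperones, disulfide-forming enzymes, stress sensors, degradation factors and translocon subunits through which secreted and membrane proteins pass. Hearts of Ythdc1flox/flox mice, called flox controls here (n = 3), were compared with hearts of Ythdc1-CKO mice, called CKO (n = 3). Ythdc1 encodes a nuclear protein that reads N6-methyladenosine, a base modification of messenger RNA. Both groups received normal chow for 15 days, and each library is labelled an independent biological replicate. The series text writes HKO for the knockout where the sample labels write CKO. The labels give neither the Cre driver, the deleted exons, the age nor the sex, so the cells in which Ythdc1 was deleted are not known here.

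Proteins entering the ER are threaded through the Sec61 channel and folded by the chaperones BiP (Hspa5) and GRP94 (Hsp90b1), by the lectins calreticulin and calnexin, and by protein disulfide isomerases. When unfolded protein accumulates, the sensors IRE1 (Ern1), PERK (Eif2ak3) and ATF6 start the unfolded protein response, in which ATF6 and spliced XBP1 raise transcription of chaperone genes. PERK instead phosphorylates the initiation factor eIF2 alpha, which lowers protein synthesis while favouring translation of ATF4. In heart muscle the ER is continuous with the sarcoplasmic reticulum, the calcium store for contraction.

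Of the 32 genes, 31 averaged at least 1 FPKM (fragments per kilobase of gene, scaled by library size) over the 6 libraries and were tested with limma on log2(FPKM + 1). Of these, 3 genes, P4hb, Ero1l and Ppp1r15a, rose in CKO hearts at a Benjamini-Hochberg adjusted p under 0.05, and 0 passed as lower (1, Herpud1, at an unadjusted p under 0.05). That is 9.68% called higher, against 5.69% of the 12144 genes tested that were called higher and 5.49% called lower (11.2% in all). With voom on recovered reads 4 genes passed as higher, these 3 and Derl1, and 0 as lower. With no filter on low values 27031 genes were tested and 0 of the set passed (1.44% of all were higher), and the number higher was 0 to 3 with 1 library left out. A further 5 genes had an unadjusted p under 0.05 (8 in all) in limma but did not pass after adjustment. The share of all genes tested at that level was not computed, so these counts, here and by role below, are a description. The log2 difference was above 0 in 29 of 31 genes (27 with quantile normalization or array weights, 24 without CKO 1 and 27 to 29 without any other library), against 51.1% of all genes tested, with a median of 0.20 against 0.01 for all genes. Apart from the 3 called genes and Herpud1, these differences lay between -0.10 and 0.48 on the log2(FPKM + 1) scale. That scale understates changes of low genes: the ratio of mean FPKM was 1.58 for Sdf2l1 and 1.55 for Ern1. In 11 genes every CKO library exceeded every flox control (35.5%, against 16.9% of all genes tested, or 34.3% in either direction), in 1 gene, Herpud1, every CKO library was lower (17.4% of all genes), and in 19 the groups overlapped. These genes are co-regulated and share their libraries, so the count of 29 is a description. In whole hearts, a change in the share of a cell type and a change in RNA per cell cannot be told apart.

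**Figure D1:**
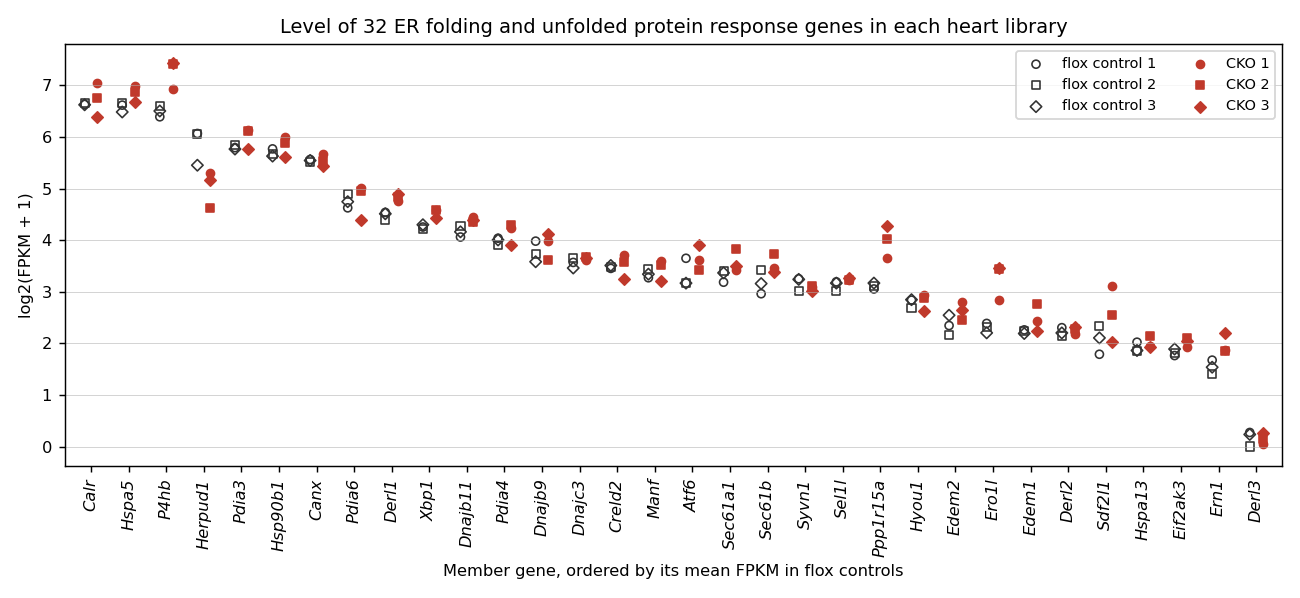
Level of the 32 genes in each library as log2(FPKM + 1), ordered along the horizontal axis by mean FPKM in flox controls; open symbols are flox control libraries and filled symbols CKO libraries, with 1 shape per replicate number. P4hb, Ero1l and Ppp1r15a have all CKO symbols above all control symbols, Herpud1 has them below, and Derl3 lies near 0.

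The targeted gene checked the labels. Ythdc1 (GRCm38 chromosome 5, 86804221 to 86836659, plus strand) stood at 4.31, 3.64 and 4.10 FPKM in flox controls 1, 2 and 3, against 2.39, 2.57 and 2.34 FPKM in CKO 1, 2 and 3, a ratio of means of 0.607 (limma log2 difference -0.54, adjusted p = 0.0150). The groups did not overlap, and an exact 2-sided permutation test gave p = 0.1, the smallest that 3 against 3 libraries allow. Rescaling to a common sum (adjusted p = 0.0888), or leaving out flox control 1 (0.0707), flox control 3 (0.0637) or CKO 3 (0.0535), took the limma call away. Libraries held 17434296 to 19360428 gene-assigned reads, and correlations of log2(FPKM + 1) were 0.978 to 0.984 among flox controls, 0.955 to 0.977 among CKO libraries and 0.940 to 0.953 between groups. CKO 3 was the only library with more than 5 Xist reads (4037) and held 0.350 FPKM of Ddx3y against 10.8 to 15.9 FPKM elsewhere. Its sex-linked expression was of the female type, and that of the other 5 libraries, all flox controls included, of the male type. Sex-linked expression was therefore not balanced between the genotypes. Cardiomyocyte markers were abundant, as the heart label implies. They summed to 18398 to 22220 FPKM across the controls, against 14377, 15384 and 18846 FPKM in CKO 1, 2 and 3. Of these 9 markers, 9, 8 and 3 lay below every control in CKO 1, 2 and 3, and 0, 0 and 2 above. The matching shares of all genes tested were not computed.

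The promoters of 5 of the genes are shown because the 3 called genes, the chaperone BiP and the gene with the lowest difference differ in which stress-element letters they hold. Each stretch runs from 250 bases before to 50 bases after the RefSeq transcription start, on the gene's own strand, from the build GRCm38.p6. They are Hspa5 at chr2:34771840-34772139 (plus), Herpud1 at chr8:94386179-94386478 (plus), P4hb at chr11:120573204-120573503 (minus), Ero1l at chr14:45318523-45318822 (minus) and Ppp1r15a at chr7:45526219-45526518 (minus). Capitals mark exact matches, on either strand, to 4 motifs: the ER stress element ERSE (CCAAT and CCACG with any 9 bases between them), ERSE-II (ATTGG and CCACG with any 1 base between them), the unfolded protein response element UPRE (TGACGTGG) and the C/EBP-ATF composite element CARE (TGATGNAA).
Hspa5: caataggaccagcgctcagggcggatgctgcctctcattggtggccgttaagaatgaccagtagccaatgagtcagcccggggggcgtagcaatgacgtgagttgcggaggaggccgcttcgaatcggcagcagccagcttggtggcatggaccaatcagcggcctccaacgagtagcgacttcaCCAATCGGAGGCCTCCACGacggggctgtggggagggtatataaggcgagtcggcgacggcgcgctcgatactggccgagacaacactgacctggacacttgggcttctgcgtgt
Herpud1: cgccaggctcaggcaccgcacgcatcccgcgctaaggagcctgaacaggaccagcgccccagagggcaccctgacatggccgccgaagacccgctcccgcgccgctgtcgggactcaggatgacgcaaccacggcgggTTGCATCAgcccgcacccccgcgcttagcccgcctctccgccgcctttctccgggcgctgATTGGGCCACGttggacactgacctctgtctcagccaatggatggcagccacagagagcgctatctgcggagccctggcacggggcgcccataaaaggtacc
P4hb: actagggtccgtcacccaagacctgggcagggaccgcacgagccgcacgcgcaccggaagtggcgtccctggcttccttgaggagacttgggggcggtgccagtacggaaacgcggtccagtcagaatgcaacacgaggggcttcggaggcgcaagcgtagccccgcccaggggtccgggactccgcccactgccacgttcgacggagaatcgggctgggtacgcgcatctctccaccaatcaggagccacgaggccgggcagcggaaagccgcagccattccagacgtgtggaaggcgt
Ero1l: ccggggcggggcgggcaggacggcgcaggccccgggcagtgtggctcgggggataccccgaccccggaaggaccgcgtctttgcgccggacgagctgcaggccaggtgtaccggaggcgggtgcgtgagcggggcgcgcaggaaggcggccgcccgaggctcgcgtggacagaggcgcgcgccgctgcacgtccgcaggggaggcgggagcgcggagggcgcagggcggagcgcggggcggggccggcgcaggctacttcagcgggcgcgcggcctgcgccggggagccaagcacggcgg
Ppp1r15a: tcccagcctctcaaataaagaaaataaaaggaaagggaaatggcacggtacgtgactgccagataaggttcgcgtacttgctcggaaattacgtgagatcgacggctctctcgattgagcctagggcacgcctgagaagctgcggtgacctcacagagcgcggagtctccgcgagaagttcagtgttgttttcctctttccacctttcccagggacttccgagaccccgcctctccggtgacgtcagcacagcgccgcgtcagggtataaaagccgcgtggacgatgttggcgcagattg

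In the Hspa5 promoter the ERSE letters begin 65 bases before the start. In Herpud1 the ERSE-II letters begin 52 bases before the start, and CARE letters lie on the opposite strand from 112 bases before it. None of the 4 motifs was spelled out in the windows of P4hb, Ero1l or Ppp1r15a, which says only that these exact letters are absent there. Across 32851 RefSeq promoters of the same length, ERSE letters occurred in 39 (0.119%), ERSE-II in 12 (0.0365%), UPRE in 222 (0.676%) and CARE in 1304 (3.97%). Of the 26 genes of the set with a RefSeq promoter entry, 9 held ERSE letters (Hspa5, Hsp90b1, Calr, Canx, Pdia6, Dnajc3, Creld2, Syvn1 and Derl3), 2 held ERSE-II (Herpud1 and Dnajb11), 1 held CARE and 0 held UPRE. The 10 tested genes with ERSE or ERSE-II letters included 0 called genes and had a median log2 difference of 0.06 (range -0.83 to 0.26). The 15 tested genes whose promoter lacked both included the 3 called genes and had a median of 0.28 (0.04 to 0.95), and the difference between these sets was not tested. The remaining 6 tested genes had no promoter entry.

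The chaperones of the ER lumen did not pass the limma test, 0 of 6, and 0 had an unadjusted p under 0.05. Counts by role, here and below, rest on 2 to 7 tested genes each. Of all genes tested 11.2% were called, so a count of 0 in so few genes is only a description. Hspa5, the Hsp70 of the ER lumen and the best known target of the response, measured 97.3, 99.9 and 88.6 FPKM in flox controls 1, 2 and 3, against 126, 116 and 102 FPKM in CKO 1, 2 and 3. All 3 CKO libraries lay above the controls, CKO 3 only just, and the log2 difference was 0.26 (95% interval -0.03 to 0.55, limma adjusted p = 0.227). Hsp90b1, the Hsp90 of the ER, measured 53.6, 50.004 and 48.5 FPKM across the controls, against 62.7, 58.2 and 48.1 FPKM in CKO libraries, with CKO 3 below every control. Its log2 difference was 0.14 (-0.16 to 0.44, adjusted p = 0.516). Sdf2l1, a small stress-induced lumenal protein, measured 2.46, 4.06 and 3.31 FPKM across the controls, against 7.596, 4.87 and 3.09 FPKM in CKO libraries. CKO 1 was the highest and CKO 3 lay inside the control range, on 46 to 151 reads per library. The log2 difference was 0.48, with an interval from -0.18 to 1.15 (limma adjusted p = 0.309).

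Hyou1, a large Hsp70-related chaperone, had 6.15, 5.44 and 6.20 FPKM across the controls, against 6.64, 6.40 and 5.18 FPKM in CKO libraries (log2 difference 0.03, -0.23 to 0.28, and -0.033 without CKO 1). Manf, a secreted stress-induced protein that binds BiP, had 8.66, 9.90 and 9.14 FPKM across the controls, against 11.1, 10.4 and 8.22 FPKM in CKO libraries (0.09, -0.21 to 0.38). In both genes the CKO libraries spanned the control range, with CKO 1 the highest and CKO 3 the lowest of all 6. Hspa13, a microsomal Hsp70 relative, stayed between 2.60 and 3.43 FPKM in all libraries, with a log2 difference of 0.10. The 95% intervals of both genes include 0 and end at 0.28 and 0.38, so larger increases on this scale lie outside them.

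The lectin chaperones hold newly glycosylated proteins until they are folded. Calr, encoding calreticulin, was the most abundant of the 32 genes in flox controls, at 98.4, 100.4 and 97.8 FPKM, and measured 131, 107 and 82.6 FPKM in CKO 1, 2 and 3. The controls lay within 3 FPKM of each other while the CKO libraries ran from above to below them (SD 1.37 against 24.3 FPKM, n = 3 each). The log2 difference was 0.09 (-0.33 to 0.50, limma adjusted p = 0.791), and it was -0.072 without CKO 1. Canx, encoding membrane-bound calnexin, measured 42.3 to 50.3 FPKM in CKO libraries and 44.7 to 46.3 FPKM in flox controls, with a log2 difference of 0.01 (-0.23 to 0.25), which was -0.056 without CKO 1.

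Of the 6 genes for disulfide bond formation, 2 rose and 4 did not pass. P4hb (ENSMUSG00000025130, chromosome 11, 120560298 to 120573253, minus strand) encodes PDI, the main disulfide isomerase and also the beta subunit of collagen prolyl 4-hydroxylase. It measured 83.0, 96.1 and 89.9 FPKM across the controls, against 121, 171 and 172 FPKM in CKO libraries. Every CKO library exceeded every control, and CKO 1 was the lowest of the 3. The mean went from 89.7 ± 6.55 to 154 ± 29.3 FPKM (SD, n = 3 each), 1.72-fold, with a log2 difference of 0.76 (0.36 to 1.16) and a limma adjusted p of 0.0346, on 4017 to 9513 reads per library.

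Ero1l (chromosome 14, 45283087 to 45318771, minus strand) encodes the oxidase that passes electrons from PDI to oxygen. It measured 4.23, 3.95 and 3.61 FPKM across the controls, against 6.16, 9.94 and 10.03 FPKM in CKO libraries. As for P4hb, CKO 2 and CKO 3 were close to each other and CKO 1 lay between them and the controls. The mean rose 2.22-fold from 3.93 ± 0.312 to 8.71 ± 2.21 FPKM (SD, n = 3 each), with a log2 difference of 0.95 (0.53 to 1.38) and a limma adjusted p of 0.0230, on 367 to 1022 reads. The calls of both genes rested on every library except CKO 1: leaving out any one of the other 5 gave adjusted p-values of 0.0799 to 0.130 for P4hb and 0.0654 to 0.0801 for Ero1l. The log2 difference stayed between 0.68 and 0.93 for P4hb and between 0.85 and 1.16 for Ero1l over all alternatives.

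The other PDI relatives had smaller log2 differences than P4hb and Ero1l. Pdia3, the isomerase that works with calreticulin and calnexin, measured 53.5 to 56.8 FPKM across the controls, against 69.4, 68.8 and 53.2 FPKM in CKO 1, 2 and 3 (log2 difference 0.20, -0.11 to 0.51). Pdia4 measured 15.4, 14.1 and 15.1 FPKM across the controls, against 17.8, 18.7 and 13.9 FPKM in CKO libraries (0.16, -0.14 to 0.45). In both genes CKO 1 and CKO 2 lay above the controls and CKO 3 lay below them. Pdia6, an isomerase that acts with BiP, ranged from 19.9 FPKM in CKO 3 to 31.3 FPKM in CKO 1, on either side of the flox controls at 23.7 to 28.9 FPKM (0.03, -0.41 to 0.47, and -0.087 without CKO 1). Creld2, a stress-induced lumenal protein grouped here, measured 9.96, 10.2 and 10.4 FPKM across the controls, against 12.2, 10.9 and 8.52 FPKM in CKO libraries (0.03, -0.28 to 0.34), and its difference was -0.071 without CKO 1.

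Ratios within a library, which do not depend on its scaling, set P4hb and Ero1l against Pdia3, Pdia4 or Pdia6. The pairs were chosen after their values were seen. FPKM of P4hb over Pdia3 was 1.52, 1.69 and 1.68 across the controls, against 1.74, 2.48 and 3.23 in CKO 1, 2 and 3. P4hb over Pdia6 was 3.33 to 3.50 across the controls, against 3.85, 5.68 and 8.64 in CKO libraries. Both ratios were highest in CKO 3 and did not overlap between groups, though CKO 1 was close to the controls (exact 2-sided permutation p = 0.1 for each, the smallest possible). P4hb over Pdia4 overlapped between groups (exact permutation p = 0.2). Ero1l over Pdia4 was 0.240 to 0.281 across the controls, against 0.346, 0.531 and 0.720 in CKO libraries (exact permutation p = 0.1). In all, 8 ratios were computed, and after Benjamini-Hochberg adjustment over them the smallest value was 0.133.

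**Figure D2:**
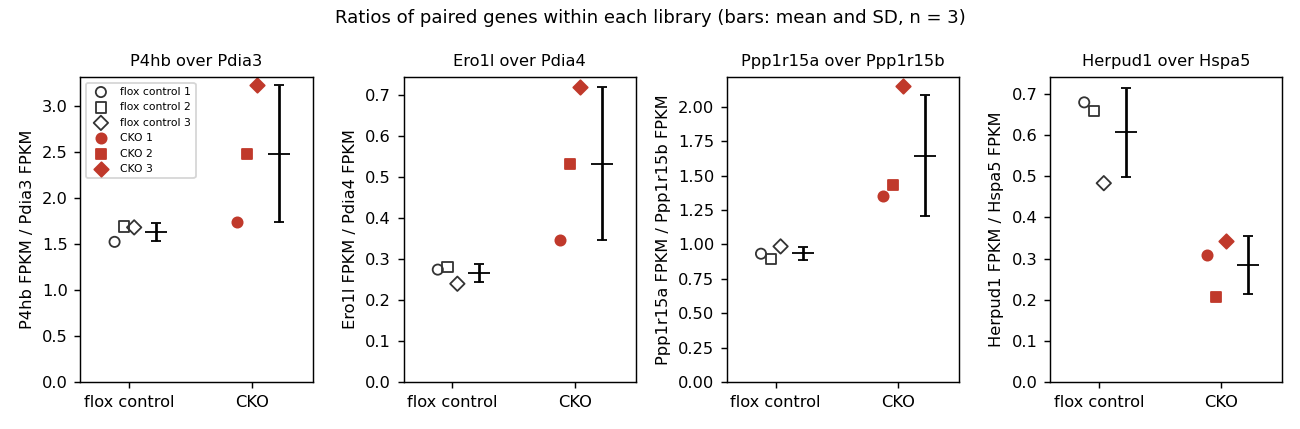
Ratios of FPKM within each library for 4 gene pairs, with each library as a symbol and bars for the mean and SD of each group (n = 3). P4hb over Pdia3, Ero1l over Pdia4 and Ppp1r15a over Ppp1r15b lie higher in all CKO libraries and reach their maximum in CKO 3, while Herpud1 over Hspa5 lies lower in all CKO libraries.

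The DnaJ cochaperones deliver clients to BiP and start its ATP hydrolysis, and 0 of 3 passed the limma test (1, Dnajb11, at an unadjusted p under 0.05). Dnajb11 measured 15.7, 18.3 and 16.9 FPKM across the controls, against 20.7, 19.5 and 20.1 FPKM in CKO libraries. All CKO libraries lay above the controls, by little, with a log2 difference of 0.23 (0.02 to 0.45, limma adjusted p = 0.152). Dnajb9, a target of spliced XBP1, measured 14.8, 12.3 and 10.98 FPKM across the controls, against 14.8, 11.2 and 16.4 FPKM in CKO libraries, so that the groups overlapped (0.14, -0.25 to 0.53). Dnajc3, which also inhibits eIF2 alpha kinases, lay between 10.01 and 11.7 FPKM in all 6 libraries (0.08, -0.12 to 0.28).

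Among the 5 sensors and regulators, Ppp1r15a rose and the other 4 had log2 differences above 0 that did not pass. Ppp1r15a (chromosome 7, 45522916 to 45526268, minus strand) encodes the stress-induced subunit that directs protein phosphatase 1 to eIF2 alpha and so reverses the PERK signal. It measured 7.31, 7.70 and 7.99 FPKM across the controls, against 11.6, 15.3 and 18.3 FPKM in CKO libraries. The controls were tightly grouped, and every CKO library exceeded them. The mean rose 1.96-fold from 7.67 ± 0.343 to 15.1 ± 3.35 FPKM (SD, n = 3 each), with a log2 difference of 0.87 (0.49 to 1.24) and a limma adjusted p of 0.0210, on 363 to 974 reads. Without flox control 1, flox control 2, flox control 3 or CKO 2 the adjusted p was 0.0867, 0.0674, 0.0667 and 0.0615, while without CKO 1 or CKO 3 it was 0.00634 and 0.0466. Its constitutive counterpart Ppp1r15b, which serves the same phosphatase without stress, stood at 8.20 ± 0.405 and 9.25 ± 1.204 FPKM (log2 difference 0.15, adjusted p = 0.405). The within-library ratio of Ppp1r15a over Ppp1r15b was 0.932, 0.891 and 0.985 across the controls, against 1.35, 1.43 and 2.15 in CKO libraries (exact permutation p = 0.1).

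Ern1, encoding the IRE1 kinase and endonuclease that splices Xbp1, measured 2.19, 1.64 and 1.90 FPKM across the controls, against 2.67, 2.62 and 3.57 FPKM in CKO libraries. The groups did not overlap (log2 difference 0.44, 0.13 to 0.75), but the limma adjusted p was 0.0794. Xbp1, whose spliced transcript encodes the active transcription factor, measured 18.1, 17.6 and 18.7 FPKM across the controls, against 22.9, 23.1 and 20.6 FPKM in CKO libraries, again without overlap (0.28, 0.07 to 0.49, adjusted p = 0.0920). Eif2ak3, encoding PERK, measured 2.39, 2.52 and 2.71 FPKM across the controls, against 2.79, 3.29 and 3.10 FPKM in CKO libraries (0.20, -0.02 to 0.41, adjusted p = 0.211). Atf6 measured 11.6, 7.98 and 7.99 FPKM across the controls, against 11.3, 9.77 and 13.9 FPKM in CKO libraries, where flox control 1 lay among the CKO values (0.32, -0.10 to 0.74). Gene totals do not separate spliced from unspliced Xbp1 or intact from cleaved ATF6, so sensor activity was not measured here.

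**Figure D3:**
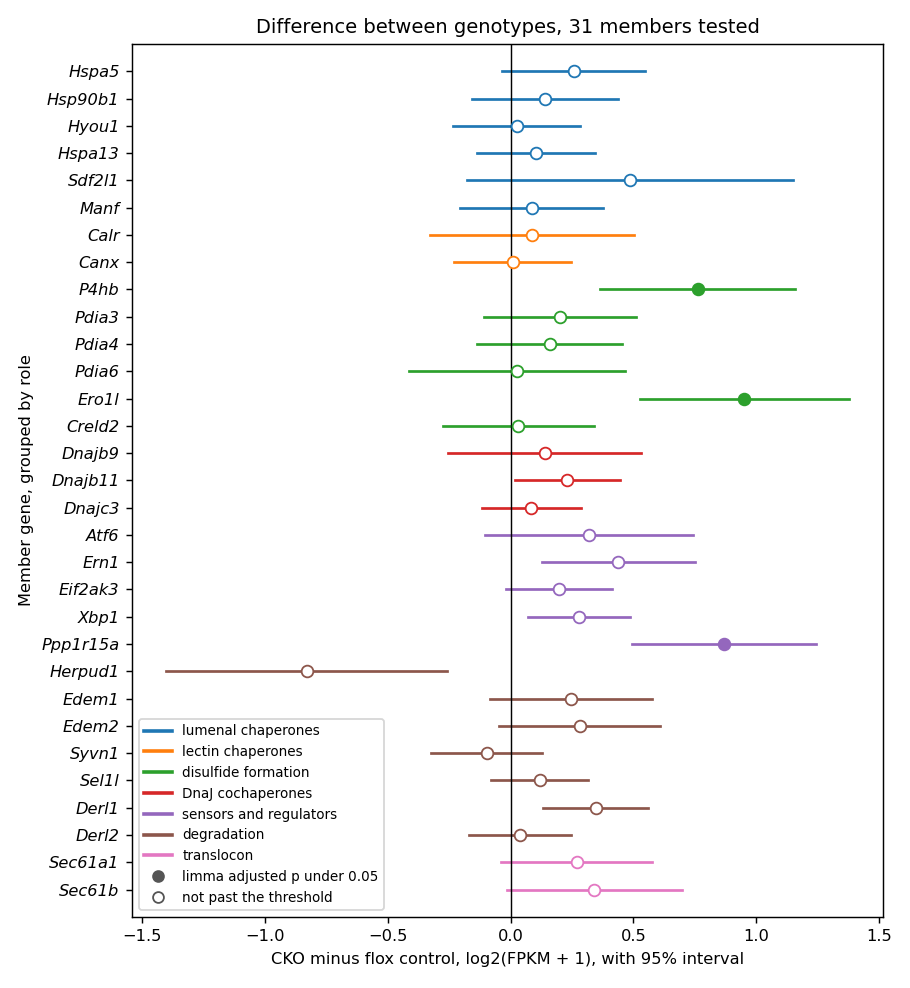
Difference between CKO and flox control on the log2(FPKM + 1) scale for the 31 tested genes, grouped by role, with 95% intervals; filled points passed the limma threshold. P4hb, Ero1l and Ppp1r15a stand at 0.76, 0.95 and 0.87, Herpud1 at -0.83, and the remaining points lie between -0.10 and 0.48.

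The degradation factors carry misfolded proteins back to the cytosol for the proteasome, and 0 of the 7 tested passed with limma (2, Herpud1 and Derl1, at an unadjusted p under 0.05). Herpud1 (chromosome 8, 94386438 to 94395377, plus strand), a stress-induced membrane protein that assembles the retrotranslocation complex, had the lowest log2 difference of the 31 genes. It measured 66.1, 65.9 and 42.8 FPKM across the controls, against 38.7, 23.7 and 34.7 FPKM in CKO libraries. All CKO libraries lay below the controls, with flox control 3 only 4 FPKM above CKO 1. Group means stood at 58.3 ± 13.4 and 32.4 ± 7.77 FPKM (SD, n = 3 each), a ratio of 0.556, with a log2 difference of -0.83 (-1.40 to -0.26) and a limma adjusted p of 0.0734. It passed as lower when libraries were rescaled to a common sum (0.0359), to a common sum without mitochondrial genes (0.0444) or by quantiles (0.0441), and over all alternatives its adjusted p ran from 0.0359 to 0.216.

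Herpud1 and Hspa5, which both carry stress-element letters in the promoters shown above, had log2 differences of opposite sign. Herpud1 over Hspa5 FPKM was 0.680, 0.659 and 0.483 across the controls, against 0.308, 0.205 and 0.342 in CKO libraries. Herpud1 over Xbp1 was 3.65, 3.75 and 2.29 across the controls, against 1.69, 1.03 and 1.69 in CKO libraries. Neither ratio overlapped between groups (exact 2-sided permutation p = 0.1 each), while Herpud1 over Syvn1 overlapped (exact permutation p = 0.2).

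Derl1, a membrane protein of the retrotranslocation channel, measured 22.3, 20.1 and 21.8 FPKM across the controls, against 26.1, 27.5 and 28.8 FPKM in CKO libraries. Spread was small in both groups (21.4 ± 1.17 and 27.4 ± 1.33 FPKM, SD, n = 3 each) and the groups did not overlap, but with a log2 difference of 0.35 (0.13 to 0.56) the limma adjusted p was 0.0544. It passed with a filter at 5 FPKM (0.0489), with array weights (0.0473) and with voom on recovered reads (0.0492). Sel1l, the scaffold of the ubiquitin ligase Syvn1, measured 8.14, 7.10 and 7.99 FPKM across the controls, against 8.32, 8.43 and 8.69 FPKM in CKO libraries, a separation without overlap but of only 0.12 on the log2 scale (-0.08 to 0.31). Syvn1 itself measured 7.08 to 8.53 FPKM across the controls, against 7.09 to 7.65 FPKM in CKO libraries (-0.10, -0.32 to 0.13). Edem1 and Edem2, which trim mannose from misfolded glycoproteins, had log2 differences of 0.24 and 0.28 with intervals that included 0, and Derl2 had 0.04. Derl3 had 0 to 7 reads per library (at most 0.208 FPKM) and was not tested; the 0 reads of flox control 2 allow up to 0.0857 FPKM, the value of 3 reads there.

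The translocon subunits form the channel into the ER, and 0 of 2 passed with limma or at an unadjusted p under 0.05. Sec61a1, the pore subunit, measured 8.10, 9.52 and 9.31 FPKM across the controls, against 9.79, 13.2 and 10.3 FPKM in CKO libraries, without overlap (log2 difference 0.27, -0.04 to 0.58, limma adjusted p = 0.230). Sec61b, a small accessory subunit, measured 6.79 to 9.77 FPKM across the controls, against 9.47 to 12.3 FPKM in CKO libraries (0.34, -0.01 to 0.70).

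The 3 CKO hearts did not share 1 order across the genes. In 10 of 31 tested genes CKO 1 was the highest and CKO 3 the lowest of the CKO libraries: Hspa5, Hsp90b1, Hyou1, Sdf2l1, Manf, Calr, Canx, Pdia3, Pdia6 and Creld2. In 6 genes the order was the opposite, with CKO 3 highest and CKO 1 lowest: P4hb, Ero1l, Ppp1r15a, Sel1l, Derl1 and Derl2. The first set holds chaperones and isomerases, and the second holds all 3 called genes. The order with CKO 2 highest and CKO 3 lowest also held 6 genes, and each remaining order held 3. Shares of all genes tested in each order were not computed, so these counts are a description. Against the flox control mean, the median of the lumenal chaperones was 0.27, 0.22 and -0.06 on the log2 scale in CKO 1, 2 and 3, and that of the lectin chaperones 0.27, 0.05 and -0.18. The sensors and regulators stood at 0.32, 0.32 and 0.57. Over all 31 genes, 28, 27 and 19 lay above the control mean in CKO 1, 2 and 3, and the matching shares of all genes tested were not computed. Without CKO 1, 24 of 31 differences were above 0 and their median was 0.14.

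**Figure D4:**
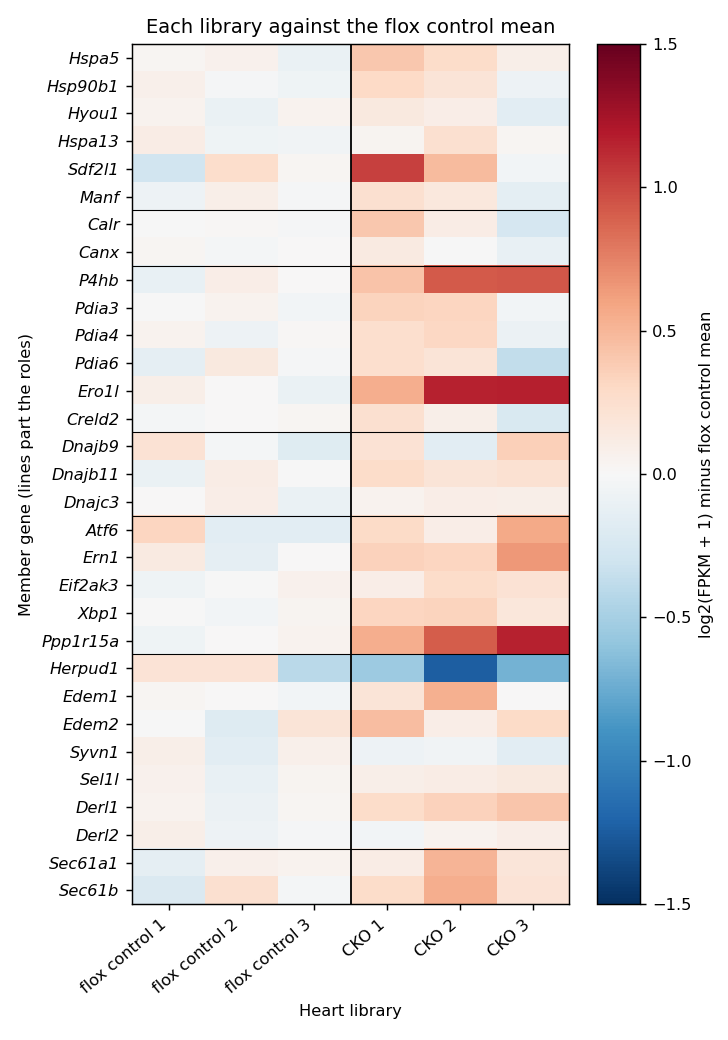
Each library's log2(FPKM + 1) minus the flox control mean for the 31 tested genes (rows, with lines parting the roles) in the 6 libraries (columns); red is above and blue below the control mean. In the lumenal and lectin chaperone rows CKO 1 is redder than CKO 3, except that Hspa13 is pale in both. The DnaJ cochaperone rows do not share that order. The P4hb, Ero1l and Ppp1r15a rows are darkest in CKO 2 and CKO 3.

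Markers of other heart cells also differed between the CKO libraries. The 8 macrophage and leukocyte markers summed to 133 to 267 FPKM across the controls, against 823, 165 and 108 FPKM in CKO 1, 2 and 3. That was the order of the 10 genes named above with CKO 1 highest and CKO 3 lowest. Of the tested macrophage and leukocyte markers, 0 of 7 were called. The 7 plasma and B cell markers summed to 16.4 to 16.97 FPKM across the controls, against 27.1, 21.2 and 14.8 FPKM in CKO 1, 2 and 3. The 10 fibroblast markers, from cells that secrete collagen, summed to 610.3 to 789.8 FPKM across the controls, against 828, 1074 and 691 FPKM in CKO libraries, and 1 of 10, Tcf21, was higher (log2 difference 1.28, limma adjusted p = 0.0147). Single fibroblast markers did not move as 1 group: 7, 7 and 5 of the 10 lay above every control in CKO 1, 2 and 3. In CKO 3, Tcf21 stood at 20.4 FPKM (6.08 to 7.88 in controls) and Postn at 81.3 FPKM (34.8 to 47.3 in controls). Both lay above their controls, as P4hb did, while 4 of the 10 markers lay below every control. The matching shares of all genes tested were not computed, so these marker counts are a description. Endothelial markers summed to 450 to 532 and 431 to 489 FPKM, smooth muscle and pericyte markers to 405 to 768 and 372 to 531 FPKM, and atrial markers to 71.0 to 299 and 33.2 to 49.6 FPKM, controls first. Of the tested markers, 1 of 8 endothelial, 0 of 7 smooth muscle and pericyte, 1 of 5 atrial, 1 of 9 cardiomyocyte and 0 of 5 plasma and B cell markers passed, each as lower. Adipocyte markers summed to at most 0.548 FPKM in any library, and no marker of the 8 lists was at 0 in all 6. The part of these cells, of the sex-linked difference of CKO 3 and of mitochondrial reads (18.4% to 21.02% across the controls, against 20.7%, 14.4% and 19.6% in CKO 1, 2 and 3) in the results was not tested.

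Another 6 lists of genes of the same pathway, chosen with earlier results of these data known, gave the surroundings. Of all genes tested 5.69% were called higher and 5.49% lower. The counts of each list, here and below, are a description. Of 17 further translocation and signal peptide genes, 2 were higher and 0 lower (median log2 difference 0.15): Ssr4, a translocon-associated subunit, went from 13.0 ± 1.34 to 17.6 ± 0.513 FPKM (adjusted p = 0.0419), and Spcs3, a signal peptidase subunit, from 12.1 ± 0.790 to 15.8 ± 0.574 FPKM (limma, adjusted p = 0.0440). Of 14 glycan attachment and lectin cycle genes, 1 was higher and 0 lower (median 0.21). It was Stt3b, a catalytic subunit of oligosaccharyltransferase, at 18.5 ± 1.41 and 24.8 ± 1.63 FPKM (limma adjusted p = 0.0461). All 3 calls were lost without flox control 1 or 3 or without CKO 2 or 3, and under the same-sum rescaling; over all alternatives adjusted p reached 0.147 for Ssr4, 0.175 for Spcs3 and 0.147 for Stt3b.

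Of 22 other disulfide and proline folding genes, 4 were higher and 1 lower (median 0.10). Qsox1, a secreted sulfhydryl oxidase, rose from 6.69 ± 1.15 to 18.5 ± 6.0 FPKM (log2 difference 1.31, limma adjusted p = 0.0206). P4ha1, the catalytic prolyl 4-hydroxylase subunit that pairs with the P4hb protein, went from 11.7 ± 1.65 to 17.3 ± 1.51 FPKM (0.53, adjusted p = 0.0383, limma), a call lost when any one library was left out. Txndc12, a thioredoxin-like lumenal protein, went from 11.1 ± 1.32 to 15.3 ± 0.106 FPKM (0.44, limma adjusted p = 0.0401), and the fourth higher gene was Txndc5, named after its values were seen. Tmx2, a membrane thioredoxin-like protein, fell from 41.0 ± 2.44 to 25.4 ± 2.31 FPKM (-0.67, limma adjusted p = 0.0137). The Qsox1 call was lost without flox control 1 or 3 or CKO 2, the Tmx2 call without flox control 1 or 3, and the Txndc12 call without any one library but flox control 2. Over all alternatives adjusted p reached 0.0852 for Qsox1, 0.0796 for Tmx2, 0.134 for Txndc12 and 0.123 for P4ha1.

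Of 25 other degradation genes, 0 were higher and 1 lower (median 0.09). Svip, a small inhibitor of ER-associated degradation that binds the segregase VCP, fell from 7.71 ± 1.03 to 3.36 ± 0.802 FPKM (log2 difference -1.01, limma adjusted p = 0.0138, and 0.0592 without flox control 1). Of 18 other regulators, 1 was higher and 1 lower (median 0.09). Creb3, an ER-anchored transcription factor, rose from 10.4 ± 0.701 to 16.6 ± 2.43 FPKM (0.62, limma adjusted p = 0.0265), though 15.2% of its exon bases lie opposite Tln1 (27.7 FPKM) and without strand their shared reads are uncertain. Wfs1, the ER membrane protein wolframin, fell from 21.5 ± 1.96 to 13.8 ± 2.44 FPKM (-0.62, limma adjusted p = 0.0398). Leaving out any one library but CKO 1 ended the Creb3 call, and any one but CKO 3 the Wfs1 call, with adjusted p up to 0.106 and 0.120.

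Of 18 tested genes of the ATF4 and CHOP arm, downstream of eIF2 alpha phosphorylation, 8 were higher and 0 lower. That is 44.4% called higher, against 5.69% of all genes tested, with a median log2 difference of 0.89. The list was chosen with earlier results of these data known, so its count is a description. Gdf15, a secreted stress cytokine, measured 0.717 ± 0.206 FPKM across the controls, against 18.7 ± 3.99 FPKM in CKO libraries (log2 difference 3.51, limma adjusted p = 0.000908). Asns, asparagine synthetase, went from 1.08 ± 0.343 to 10.9 ± 4.48 FPKM (2.46, limma adjusted p = 0.00607), and Trib3, a pseudokinase, from 1.72 ± 0.284 to 16.2 ± 8.23 FPKM (2.57, limma adjusted p = 0.00670). Atf5, a transcription factor, went from 25.7 ± 0.724 to 56.5 ± 9.38 FPKM (1.10, limma adjusted p = 0.00767). These 4 calls held under every alternative run. Ddit3, which encodes CHOP and like Atf4 was chosen after values were seen, went from 10.02 ± 1.05 to 21.02 ± 5.03 FPKM (0.98, limma adjusted p = 0.0245), a call lost without any one flox control or without CKO 3 (adjusted p up to 0.0790). Atf4 itself stood at 41.9 ± 5.37 and 75.8 ± 19.8 FPKM (0.81, limma adjusted p = 0.0551). Ppp1r15a, which is known as a target of ATF4 and CHOP, had a difference of 0.87. The part of ATF4 or CHOP in that difference was not tested. Gene totals do not measure eIF2 alpha phosphorylation or ATF4 protein. Leaving this list aside, 8 of 96 related genes tested were higher and 3 lower (11.5% called, against 11.2% of all genes tested), with a median of 0.12. Whether the lists differ from each other was not tested.

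**Figure D5:**
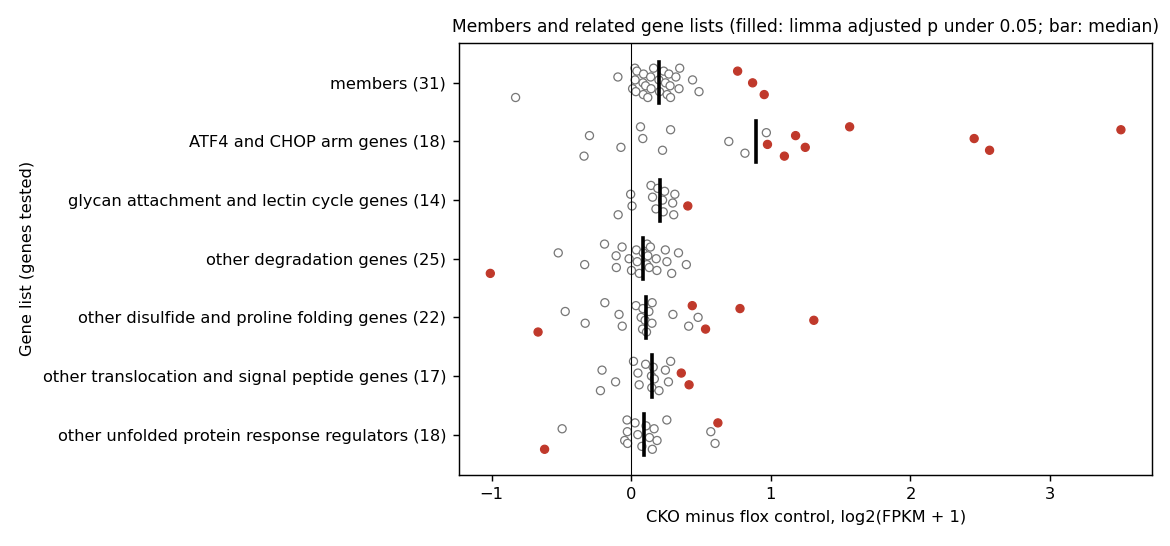
Difference between CKO and flox control on the log2(FPKM + 1) scale for the 31 tested genes of the set (top row, members) and for 6 lists of related genes, with the number tested in brackets, a bar at each median and filled points for genes past the limma threshold. The ATF4 and CHOP arm has its median at 0.89, and the other rows have medians between 0.09 and 0.21.

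Reads of genes that overlap on opposite strands could not be told apart where strand was not used in counting, which the labels do not state. Overlaps on the same strand are not parted by strand in any case. Of the set, 10 genes had an overlap on the opposite strand and 3 on the same strand. Of the 32 genes, 11 share exon bases with another gene: the largest shares were 10.3% of Hsp90b1 with the pseudogene 1810014B01Rik (1.94 FPKM), 8.16% of Sec61a1 with Gm44170 (0 FPKM) and 8.05% of Eif2ak3 with Gm43292 (0.101 FPKM). Syvn1 shares 1.87% with Mrpl49 (17.7 FPKM). Among the called genes only Ppp1r15a had a partner, Tulp2, over 0.409% of its exon bases and at 0.0618 FPKM. Of the related genes named, Tmx2 shares 10.8% with Gm28635 on the same strand (0 FPKM). On the opposite strand Atf5 shares 4.11% with Nup62 (13.9 FPKM), Ddit3 3.97% with Mars (14.5 FPKM) and Spcs3 2.16% with Asb5 (3.69 FPKM). Ddit3 also shares 6.13% with another entry of that name on the same strand (0 FPKM).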

How the data were processed

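Polyadenylated RNA of 3 flox control and 3 CKO mouse hearts was sequenced. The authors deposited FPKM values for 54532 genes and used CASAVA, HISAT2 2.0.5, featureCounts 1.5.0-p3, DESeq2 1.20.0 and the build GRCm38.p6, per the submitters' processing notes. FPKM times the deposited gene length gave whole reads for 100% of values (tolerance 0.001), and the per-library denominators behind those FPKM were a size factor by median of ratios multiplied by the geometric mean total. A fold change therefore rests on that scaling.

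The 12144 genes averaging 1 FPKM or more entered limma 3.58.1 (R 4.3.3) as log2(FPKM + 1), with genotype as the single factor, a trend in the variance, Benjamini-Hochberg adjustment over all genes tested, a threshold of 0.05 and 2 sides. Log2 differences understate changes of low genes; folds are ratios of mean FPKM. Limma p-values set the difference between groups against the spread between these hearts. Ranges of reads run over all 6 libraries and show only how many reads a value rests on. Tables were made with Python 3.11.15, pandas 2.3.3 and scipy 1.17.1. Bounds and exon overlaps came from GENCODE M21, where all 32 genes had identical bounds, and promoters from RefSeq.

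The 32 genes and all lists were chosen with earlier results of these data known, so a list's direction is no independent evidence; motifs and ratios were chosen after values were seen. Every gene of the set may be named, with values per library for those called, those whose groups do not overlap and 16 fixed genes; of each related list, the called genes up to the 4 with the smallest adjusted p are named, and of marker lists up to 2. The procedure was tested on simulated data. Alternatives were pseudocounts of 0.1 and 0.01, no filter or a mean of at least 5 FPKM, 3 other scalings, 3 other variance settings, voom on recovered reads, a replicate block and each library left out; those for related genes were added after the data were seen.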

Additional observations from a re-analysis of the deposited data

How the results depend on the processing

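The count of the set's genes called higher was 3, and it was 0 with no filter on low values, 1 with the replicate block and 0 to 3 when 1 library was left out (0 without any one flox control or CKO 2, 1 without CKO 3, 3 without CKO 1). The count called lower was 0, and 1 (Herpud1) under rescaling to the same sum, the same without mitochondrial genes, and quantile normalization; it stayed at 0 when 1 library was left out. With no filter 27031 genes were tested, and adjusted p was 0.0715 for P4hb, 0.0574 for Ero1l and 0.0502 for Ppp1r15a. Over all genes, 691 higher and 667 lower became 388 and 410 with no filter, 367 and 348 with the block, and 160 to 807 and 155 to 683 with 1 library left out; the same-sum rescaling gave 424 lower. Related genes, 16 higher and 3 lower, became 8 higher with no filter, 10 and 1 with the block, 1 lower with the same-sum rescaling, and 6 to 15 and 0 to 3 with 1 library left out. Leaving a library out leaves fewer samples to estimate the spread; beyond that the cause was not tested. The log2 difference of Ythdc1 was -0.50 (adjusted p = 0.0888, limma) with the same-sum rescaling, -0.54 (0.0542) with the block and -0.60 to -0.50 with 1 library left out. Of the 31 tested genes of the set, signs turned in 5, all with log2 differences under 0.1 in size. Hyou1 was -0.014 with array weights and -0.033 to 0.12 with 1 library left out (below 0 without flox control 2, CKO 1 or CKO 2). Canx was -0.039 with quantile normalization, -0.016 with array weights and -0.056 to 0.067 with 1 library left out (below 0 without flox control 2 or CKO 1). Pdia6 was -0.0052 with quantile normalization and -0.087 to 0.23 with 1 library left out (below 0 without flox control 1, CKO 1 or CKO 2). Calr ran from -0.072 to 0.26 and Creld2 from -0.071 to 0.16 with 1 library left out, both below 0 without CKO 1.

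Deviations of samples with the same replicate number had correlations of 0.139, 0.0597 and -0.00548 for numbers 1, 2 and 3. Those of samples with other numbers ran from -0.231 to 0.141, and not every sample correlated best with its own number. With 3 hearts a group, such weak correlations cannot decide whether the numbers mark pairs. With the replicate as a block, limma adjusted p was 0.0348 for Ppp1r15a, 0.0575 for P4hb and 0.0527 for Ero1l. For the 31 tested genes of the set, 551 values were computed under alternatives: 512 kept direction and side of the threshold, 19 lost a call (all in P4hb, Ero1l or Ppp1r15a), 6 gained one and 14 turned sign. Of the related genes named, 15 that were called at first were followed under the alternatives, and 75 of their 270 values lost the call. Ythdc1 lost it in 5 of 17. No scaling moved the median of all genes by more than 0.0438 (log2). Low reads limit Derl3 and Sdf2l1, and 3 hearts a group limit every interval.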
